A study of Arabidopsis thaliana with 6 samples.

Results

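The gibberellin receptor genes *GID1A* (AT3G05120), *GID1B* (AT3G63010) and *GID1C* (AT5G27320) were examined in inflorescence stems of *Arabidopsis thaliana*. They were taken by name from the probe sets that a platform annotation table ties to 1 gene only, which gave 3 probe sets, 1 per gene, of 22746 on the array and 3 genes of 13286 measured in this way. The stems came from 35S::CLE41 plants and from wild type (WT), all of ecotype Columbia, 5 weeks old and grown with 16 h of light and 8 h of dark. *CLE41* encodes the secreted peptide TDIF, which is made in the phloem and read by cells of the vascular cambium, and the viral 35S promoter drives it in most tissues. The labels do not say whether the transgenic samples came from 1 line or several. RNA was taken from the lower part of the stem without the 1 cm next to the rosette. Each genotype had 3 samples with 1 array each. Nothing in the labels says that these came from separate plants, so the p-values may rest on technical spread alone, and the number of arrays limits the precision.

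GID1 proteins are soluble receptors of the plant nucleus and cytoplasm. When gibberellin binds, the receptor closes over the hormone and takes hold of a DELLA protein, a repressor of growth genes, which the F-box protein SLY1 then marks for destruction. DELLA proteins are known to switch on *GID1A* and *GID1B*, so that receptor transcripts are usually lower where gibberellin is plentiful. In the *Arabidopsis* stem, *GID1A* and *GID1C* carry most of the growth response, since plants that lack both are dwarf, and gibberellin is known to promote xylem fibre formation.

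In 35S::CLE41 stems *GID1B* and *GID1C* rose and *GID1A* did not pass the test. *GID1B* was 2.08-fold and *GID1C* 1.79-fold higher than in WT, and every 35S::CLE41 array lay above every WT array for both. *GID1A* was 1.24-fold higher in its mean, with overlapping arrays. A gene was called where the adjusted p of the limma fit over all probe sets was below 0.05. By this rule 6.99% of the 13513 probe sets of 1 gene were called higher in 35S::CLE41 (7.93% of all 22746), set beside 2 of the 3 receptors. The receptors were chosen with earlier results of these data known, so these shares are background and no separate support. Full separation upward, as for *GID1B* and *GID1C*, was seen for 17.3% of the probe sets of 1 gene.

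*GID1A* encodes the receptor that shares most of the stem growth response with that of *GID1C*. Its log2 intensity was 8.63, 8.74 and 8.59 in 35S::CLE41 replicates 1, 2 and 3, against 8.66, 8.17 and 8.21 in WT replicates 1, 2 and 3. WT replicate 1 lay inside the 35S::CLE41 range, and the other two WT arrays lay below it. The means were 8.65 ± 0.08 in 35S::CLE41 and 8.35 ± 0.27 in WT (SD, n = 3 each). The log2 difference, 35S::CLE41 minus WT, was 0.30 (SE 0.15), with a 95% interval of -0.03 to 0.64 and a limma adjusted p of 0.213. The interval therefore runs from 0.978-fold to 1.56-fold and does not show that *GID1A* stayed level. Without WT replicate 1 the difference was 0.46 and was called (limma adjusted p = 0.044). Without any other single array it was not called, with differences down to 0.22.

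*GID1B* is the receptor known to bind gibberellin most tightly. Its log2 intensity was 5.77, 6.02 and 5.57 in 35S::CLE41 replicates 1, 2 and 3, against 4.96, 4.50 and 4.75 in the WT replicates in the same order. The lowest 35S::CLE41 array stood above the highest WT array. The means were 5.79 ± 0.23 in 35S::CLE41 and 4.74 ± 0.23 in WT (SD, n = 3 each). *GID1B* rose by 1.05 on the log2 scale (SE 0.16; limma adjusted p = 0.00552), with a 95% interval of 1.61-fold to 2.67-fold. In size this difference stood at percentile 95.9 of all probe sets. The call was kept without each single array, with log2 differences of 0.93 to 1.16 and an adjusted p of at most 0.0244.

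The probe set of *GID1B* was dim. All 3 WT arrays and 35S::CLE41 replicate 3 lay under a log2 intensity of 5.67, the level below which the dimmest 40% of probe sets fall by mean. It ranked at percentile 39.3 to 43.2 of its array in 35S::CLE41 and 24.6 to 32.9 in WT. With the 1st percentile of each array subtracted first, the log2 difference was 1.51 (limma adjusted p = 0.0286). It lay above the 95% interval found without subtraction, 0.69 to 1.42 on the log2 scale. The size of the rise is therefore less certain than that interval, and less certain than its direction. This subtraction was chosen for single genes after seeing the data.

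*GID1C*, the partner of *GID1A* in stem growth, had log2 intensities of 6.72, 6.93 and 6.97 in 35S::CLE41 replicates 1, 2 and 3. In WT replicates 1, 2 and 3 they were 6.36, 5.81 and 5.92. WT replicate 1 came closest to the 35S::CLE41 arrays without reaching them. The means were 6.87 ± 0.14 in 35S::CLE41 and 6.03 ± 0.29 in WT (SD, n = 3 each). *GID1C* rose by 0.84 on the log2 scale (SE 0.16; limma adjusted p = 0.0126), with a 95% interval of 1.39-fold to 2.31-fold, and its size stood at percentile 93.2 of all probe sets. Without 35S::CLE41 replicate 2 the difference was 0.81 and the call was lost (adjusted p = 0.0534). Without other single arrays it was called, with 0.73 to 1.01, but only narrowly without 35S::CLE41 replicate 3 (adjusted p = 0.0498). With the 1st percentile of each array subtracted first, the log2 difference was 0.97 (limma adjusted p = 0.0453). *GID1C* ranked at percentile 51.2 to 54.7 of its array in 35S::CLE41 and 42.2 to 47.6 in WT.

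**Figure D1:**
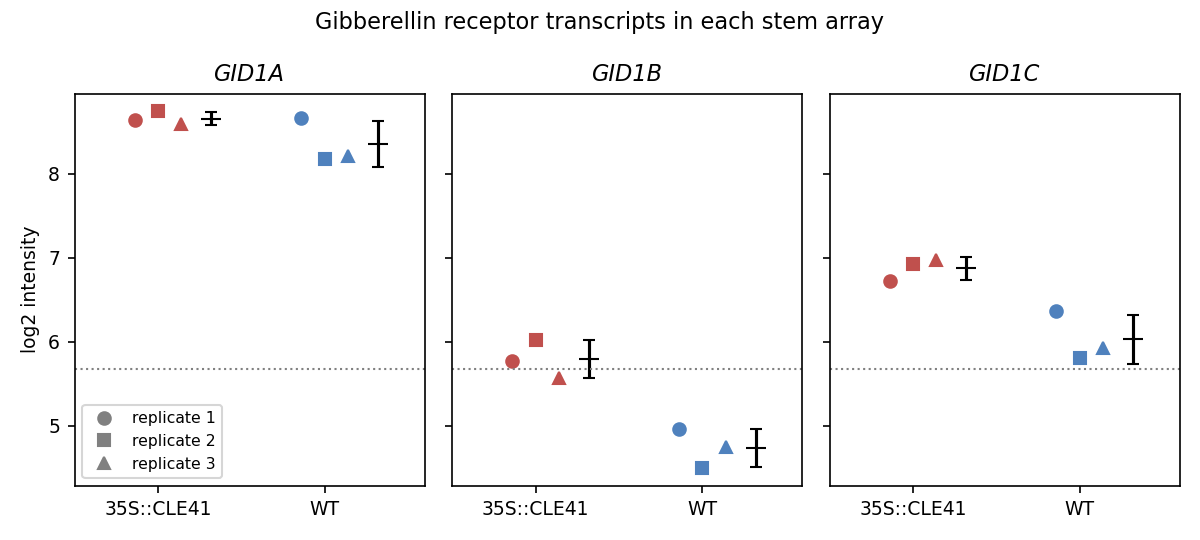
Log2 intensity of each receptor in each array, 35S::CLE41 left of WT, with the mean and SD (n = 3) as a bar beside the points; the dotted line at 5.67 marks the dimmest 40% of probe sets. *GID1B* and *GID1C* are separated by genotype, while WT replicate 1 of *GID1A*, at 8.66, lies among the 35S::CLE41 arrays.

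The receptors also had the same order among the WT arrays. WT replicate 1 was the highest WT array for each receptor, by 0.47 for *GID1A*, 0.33 for *GID1B* and 0.49 for *GID1C* over the mean of the other two (log2). WT replicate 2 was the lowest for each, by -0.26, -0.36 and -0.33 in the same order. Among the 35S::CLE41 arrays the order was not shared. *GID1A* and *GID1B* were highest in 35S::CLE41 replicate 2, and *GID1C* in replicate 3. The median intensity of the whole array was also highest in WT replicate 1, at 96.3, against 92.1 in WT replicate 2 and 91.9 in WT replicate 3. How many other probe sets share the WT order was not counted, so it cannot be called particular to the receptors.

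In these arrays *GID1A* had a smaller share of the summed receptor signal in 35S::CLE41 than in WT. Probe sets differ in how strongly they bind, so a share of linear intensity is not a share of transcripts. The change of a share between genotypes depends on these binding strengths too, unlike the log2 ratios given below. *GID1A* made up 71.3%, 69.6% and 69.0% in the 35S::CLE41 arrays, against 78.2%, 78.6% and 77.2% in the WT arrays. *GID1C* made up 18.9%, 19.8% and 22.5% in 35S::CLE41, against 15.8%, 15.3% and 15.8% in WT. *GID1B* made up 9.81%, 10.6% and 8.52% in 35S::CLE41, against 5.98%, 6.16% and 7.03% in WT. No share overlapped between the genotypes, WT replicate 1 included.

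On average the *GID1A* share was 70.0% ± 1.2 in 35S::CLE41 and 78.0% ± 0.7 in WT, a difference of -8.02 percentage points. The *GID1C* share was 20.4% ± 1.9 in 35S::CLE41 and 15.6% ± 0.3 in WT, higher by 4.76 points. The *GID1B* share was 9.64% ± 1.05 in 35S::CLE41 and 6.39% ± 0.56 in WT, higher by 3.26 points (SD, n = 3 for each mean). Each difference had p = 0.1 in an exact two-sided permutation test over arrays, the smallest p that 3 arrays against 3 allow. These shares are bound to each other, since they add up to the whole.

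The summed linear intensity of the receptors was 556, 614 and 559 in the 35S::CLE41 arrays, against 519, 367 and 384 in the WT arrays. The groups did not overlap, although WT replicate 1 came near. The mean sum was 1.36-fold higher in 35S::CLE41. Of this increase in signal *GID1A*, which was not called, made up 47.7%, *GID1C* 33.4% and *GID1B* 18.9%.

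**Figure D2:**
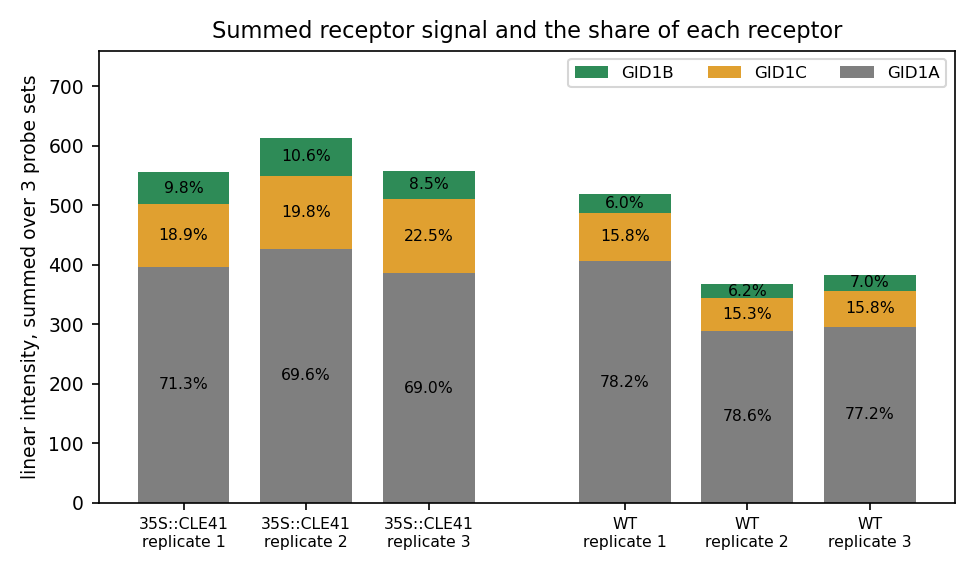
Linear intensity of the 3 receptor probe sets stacked for each array, 35S::CLE41 left of WT, with the percent share of each receptor printed in its segment. The *GID1A* share lies between 69.0% and 71.3% in 35S::CLE41 and between 77.2% and 78.6% in WT.

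Whether the receptors changed by unequal amounts was tested with the log2 ratio of 2 receptors within an array, in which a constant binding strength of each probe set and the scale of the array cancel. The ratio of *GID1B* to *GID1A* averaged -2.86 ± 0.15 in 35S::CLE41 and -3.61 ± 0.14 in WT (SD, n = 3 each), a difference of 0.75 or 1.68-fold. The ratio of *GID1C* to *GID1A* averaged -1.78 ± 0.15 in 35S::CLE41 and -2.32 ± 0.04 in WT (SD, n = 3 each), a difference of 0.54 or 1.45-fold. For both, every 35S::CLE41 array lay above every WT array, with an exact permutation p = 0.1, the smallest possible (0.15 with Benjamini-Hochberg adjustment over the 3 ratios). The ratio of *GID1B* to *GID1C* averaged -1.08 ± 0.28 in 35S::CLE41 and -1.29 ± 0.12 in WT (SD, n = 3 each), and its arrays overlapped (exact permutation p = 0.3, also after adjustment). With 3 arrays against 3 this permutation test cannot go below 0.1, so it cannot call any of these ratios at 0.05. A background added to each value does not cancel in a ratio. With the 1st percentile of each array subtracted, the difference was 1.20 for *GID1B* to *GID1A* and 0.65 for *GID1C* to *GID1A*. For *GID1B* to *GID1C* it was 0.54, against 0.21 without subtraction. The sizes of the ratios with the dim *GID1B* are therefore uncertain.

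Several facts of the arrays stand beside these values. *CLE41* itself was 3.40-fold higher in 35S::CLE41 (log2 difference 1.77, limma adjusted p = 0.0013), as its label states. WT replicate 2 stood at least 2-fold away from the rest of its genotype at 365 probe sets. For the other arrays this number was 32 to 100. Without it *GID1B* differed by 0.93 and *GID1C* by 0.73, and both were called. Of the markers listed for stem tissues 10 were measured. The xylem wall genes *IRX15* and *GUT2* were bright, as in a stem, and the meristem genes *CLV3* and *LAS* were dim.

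Of the 10 measured tissue markers 2 fell, none rose and 8 were not called, while over all probe sets 7.93% rose and 6.86% fell. *WSD1*, the epidermal wax ester synthase gene, fell to 6.00 ± 0.26 in 35S::CLE41, against 9.08 ± 0.48 in WT (log2, SD, n = 3 each; limma adjusted p = 0.000547). It was the single measured gene of 9 epidermal ones. Of 3 measured chlorenchyma genes of 9 listed, 1 fell, *SBPASE* of the Calvin cycle (log2 difference -0.66; limma adjusted p = 0.009), and their summed intensity was 13193 to 15356 in 35S::CLE41 and 16716 to 19336 in WT. Neither of 2 measured xylem genes of 13 was called, with sums of 2320 to 3298 in 35S::CLE41 and 985 to 2397 in WT, lowest in WT replicate 2. *IRX15* had log2 intensities of 10.63, 10.28 and 10.04 in 35S::CLE41, against 9.94, 8.42 and 9.89 in WT. Its arrays did not overlap, and its log2 difference of 0.90 (SE 0.39; limma adjusted p = 0.168) was as large as that of *GID1C* but was 0.40 without WT replicate 2. *GUT2* differed by 0.45 (SE 0.30), and by 0.13 without WT replicate 2. Neither of 2 phloem genes of 10 was called, with sums of 144 to 196 in 35S::CLE41 and 138 to 155 in WT. *OPS*, needed for phloem cells to differentiate, differed by 0.41 (SE 0.27), by 0.71 and called without WT replicate 2 (limma adjusted p = 0.0422) and by 0.14 without WT replicate 3. *SWEET11*, a sucrose exporter gene, differed by 0.22 (SE 0.19), and by 0.07 to 0.40 without single arrays. The 2 meristem genes of 8 were not called, with sums of 42.3 to 56.3 in 35S::CLE41 and 39.0 to 52.4 in WT. The part of these tissues in the receptor values was not tested. In bulk stem, fewer cells of a type and less RNA per cell cannot be told apart.

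Around the receptors, few other gibberellin genes were measured, and most were not called. Lists of 68 genes other than the receptors covered synthesis, inactivation, signalling, transport, DELLA targets and the GASA family, and 18 of them were measured. Of these 1 rose, 2 fell and 15 were not called, with a median log2 difference of -0.11, against 0.0020 over all probe sets and -0.0031 over probe sets of 1 gene. The share called lower was 5.57% among probe sets of 1 gene and 6.86% among all, and the share of those of 1 gene called in either direction 12.6%. Several genes not called were dim in both genotypes: *IQD22*, *SLY2*, *SHI*, AT2G18420, AT2G30810, AT2G39540 and AT5G59845. Their mean log2 intensities were 3.54 to 4.87, under the level of 5.67 that marks the dimmest 40% of probe sets. For these, the lack of a call does not show that they stayed level. None of 14 synthesis and 11 inactivation genes had a probe set tied to it alone in the table used, which leaves 8730 probe sets unnamed, so hormone supply was not analysed here.

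Downstream of the receptors, 5 of 19 signalling genes were measured and none was called. *SLY1*, the F-box gene of DELLA breakdown, had a log2 intensity of 8.37 ± 0.02 in 35S::CLE41 and 8.20 ± 0.15 in WT (SD, n = 3 each), a difference of 0.17 with a 95% interval of -0.08 to 0.42. Its relative *SLY2* (*SNEEZY*) differed by -0.19 (SE 0.14). *SPY*, whose product is a sugar transferase that acts on DELLA proteins, differed by 0.16 (SE 0.10), and *SEC*, of the related O-GlcNAc transferase, by 0.33 (SE 0.15). *SHI*, a zinc-finger gene that dampens gibberellin responses when overexpressed, differed by -0.10 (SE 0.10). Limma adjusted p ran from 0.199 for *SEC* to 0.545 for *SHI*. The DELLA genes themselves had no such probe set in that table and were not analysed here.

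All 3 transport genes were measured and none was called. *SWEET14* and *SWEET13* encode sugar carriers that also move gibberellin. *SWEET14* had log2 intensities of 7.0, 5.94 and 5.78 in 35S::CLE41, against 5.67, 5.29 and 5.56 in WT. The difference of 0.73 leaned on 35S::CLE41 replicate 1 and was 0.35 without it (limma adjusted p = 0.149 with all arrays). *SWEET13* had 7.65, 6.04 and 6.31 in 35S::CLE41, against 7.14, 6.99 and 7.24 in WT. Again 35S::CLE41 replicate 1 stood apart, and without it *SWEET13* differed by -0.95 and was called (limma adjusted p = 0.0127), against -0.46 and 0.487 with all arrays. AT1G68570 (NPF3.1), a gibberellin importer of the root endodermis, differed by 0.11 (SE 0.15).

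The list of genes that DELLA proteins are known to activate did not move one way. It held 12 genes with *GID1A* and *GID1B* among them, of which 6 were measured. Apart from the receptors, *XERICO* rose, AT5G50915 fell and 2 were not called. *XERICO*, a RING-type gene that raises abscisic acid levels, had log2 intensities of 10.04, 9.72 and 9.81 in 35S::CLE41, against 9.43, 8.96 and 9.20 in WT. The arrays did not overlap, with a difference of 0.66 (SE 0.15; limma adjusted p = 0.0233). The call was lost without each single 35S::CLE41 array in turn and without WT replicate 3 (adjusted p up to 0.0807).

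AT5G50915, known here by its locus only, had log2 intensities of 6.67, 6.34 and 6.87 in 35S::CLE41, against 8.13, 8.29 and 8.89 in WT. It fell by 1.81 on the log2 scale (SE 0.22; limma adjusted p = 0.00231), 3.50-fold lower, opposite in sign to the receptors and *XERICO*. The others were *IQD22*, which differed by 0.14 (SE 0.13), and AT2G31730, which differed by -0.20 (SE 0.13).

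In the list for the GASA family, small secreted peptides many of which gibberellin induces, 6 of 14 genes were measured, all known here by locus only. One of them, AT2G14900, fell and 5 were not called. AT2G14900 had log2 intensities of 8.82, 8.21 and 9.15 in 35S::CLE41, against 11.02, 11.40 and 10.66 in WT. It fell by 2.30 on the log2 scale (SE 0.26; limma adjusted p = 0.00202), 4.92-fold lower, the largest difference among the 18 genes. AT1G22690 differed by -0.58 (SE 0.25; limma adjusted p = 0.164), and without WT replicate 2 it differed by -0.86 and was called (adjusted p = 0.0129). The other 4 differed by -0.20 to 0.09.

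GID1 receptors belong to a large family of plant carboxylesterases, most of which are enzymes or of unknown substrate. Of 17 relatives listed, 12 were measured: 1 rose, 2 fell and 9 were not called, with a median log2 difference of -0.13. Over all probe sets of 1 gene 6.99% rose and 5.57% fell. Of those not called, AT1G47480, AT1G68620 and AT2G45610 were dim in both genotypes, with mean log2 intensities of 4.23 to 4.86. *CXE18* fell by 0.93 (SE 0.16; limma adjusted p = 0.0086), with 4.59, 4.70 and 4.39 in 35S::CLE41, against 5.35, 5.81 and 5.31 in WT, all of them dim apart from WT replicate 2. AT2G45600 fell by 0.61 (SE 0.12; limma adjusted p = 0.0156) and lost its call without 35S::CLE41 replicates 2 or 3. AT5G06570 rose by 0.82 (SE 0.20; limma adjusted p = 0.0294), with 6.76, 6.01 and 6.19 in 35S::CLE41, against 5.65, 5.32 and 5.53 in WT. Its call was lost without 35S::CLE41 replicate 3 and without each single WT array in turn (adjusted p up to 0.0644). *CXE16* and *CXE20* differed by -0.23 and -0.45 and were not called (limma adjusted p = 0.243 and 0.0841).

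**Figure D3:**
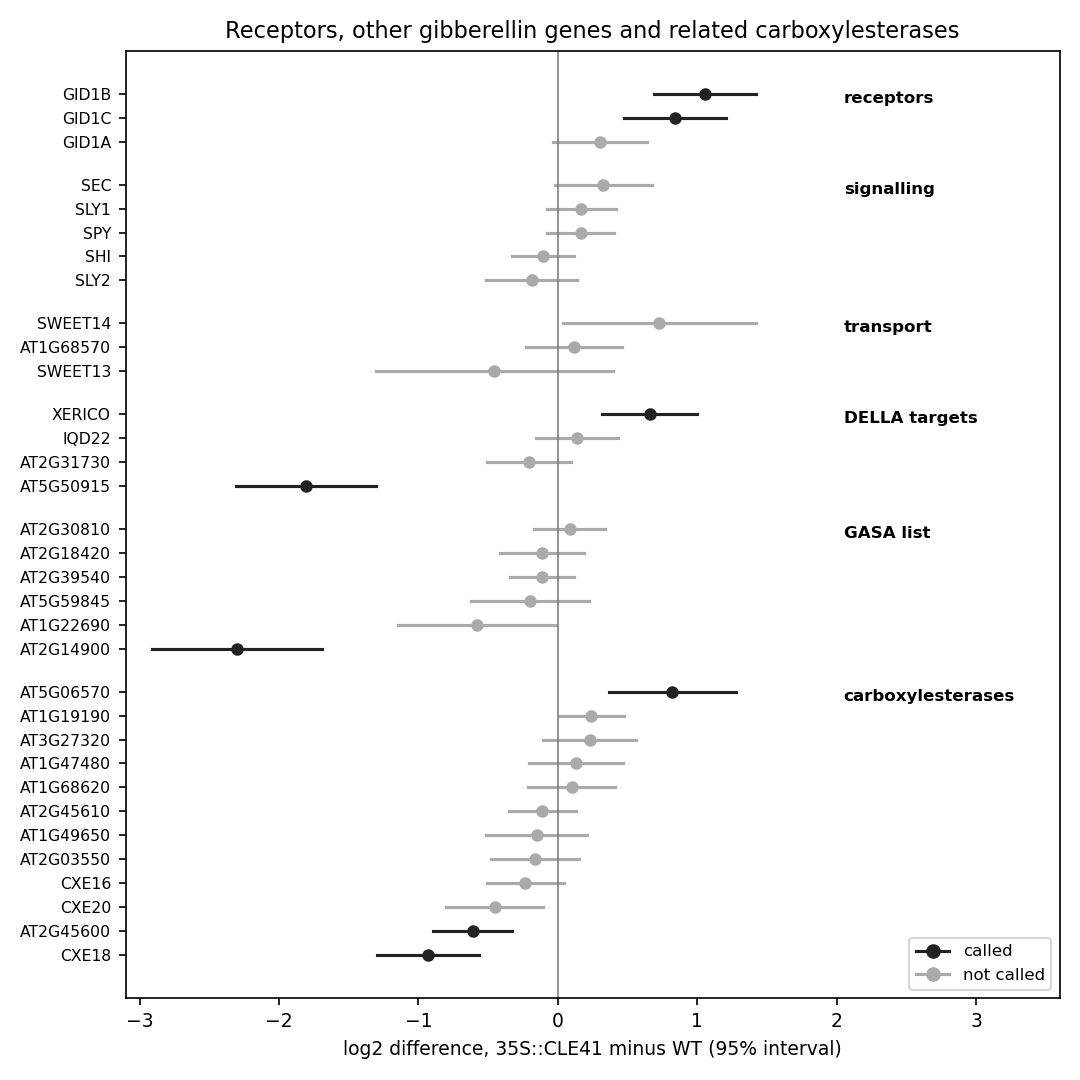
Log2 difference, 35S::CLE41 minus WT, with its 95% interval from the limma fit, for the receptors, the other measured gibberellin genes and the related carboxylesterases, grouped by role; black genes were called at an adjusted p of 0.05. *GID1B* (1.05) and *GID1C* (0.84) lie right of 0, while AT5G50915 (-1.81) and AT2G14900 (-2.30) lie far to the left.

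The genes with the most similar values over the 6 arrays were found among 1534 other genes that have a symbol. Likeness was the root mean square difference, in log2 units, between values set relative to each gene's WT mean, and it is a description of 6 arrays in 2 genotypes. The nearest to *GID1B* were *BGLU33* of the beta-glucosidase family (0.081), *RALFL32*, encoding a small secreted peptide of the RALF family (0.12), and *ATSIK*, a protein kinase gene (0.13). The nearest to *GID1C* were *PSY1R*, the receptor kinase gene linked to the growth peptide PSY1 (0.0996), *CuAO1*, a copper amine oxidase gene (0.13), and *APG8H* of the ATG8 autophagy family (0.14). The nearest to *GID1A* were *UGT74B1*, a glucosyltransferase gene of glucosinolate synthesis (0.061), *FIS1B*, an organelle fission gene (0.086), and *MAMI* (0.097).

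The receptors were not each other's nearest genes. *GID1C* was number 18 in likeness to *GID1B* (0.23), and *GID1B* was number 26 in likeness to *GID1C*. *GID1A* was number 192 for *GID1B* (0.54) and number 144 for *GID1C* (0.39). Ranked by likeness to *GID1A*, *GID1C* was number 965 and *GID1B* number 1255 of 1534. *UGT74B1* was picked for its likeness to *GID1A* over these same arrays, so its high WT replicate 1 follows from that choice. Its log2 difference of 0.35 (limma adjusted p = 0.129) was 0.48 and called without that array (adjusted p = 0.0459). This is no separate evidence on *GID1A*.

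**Figure D4:**
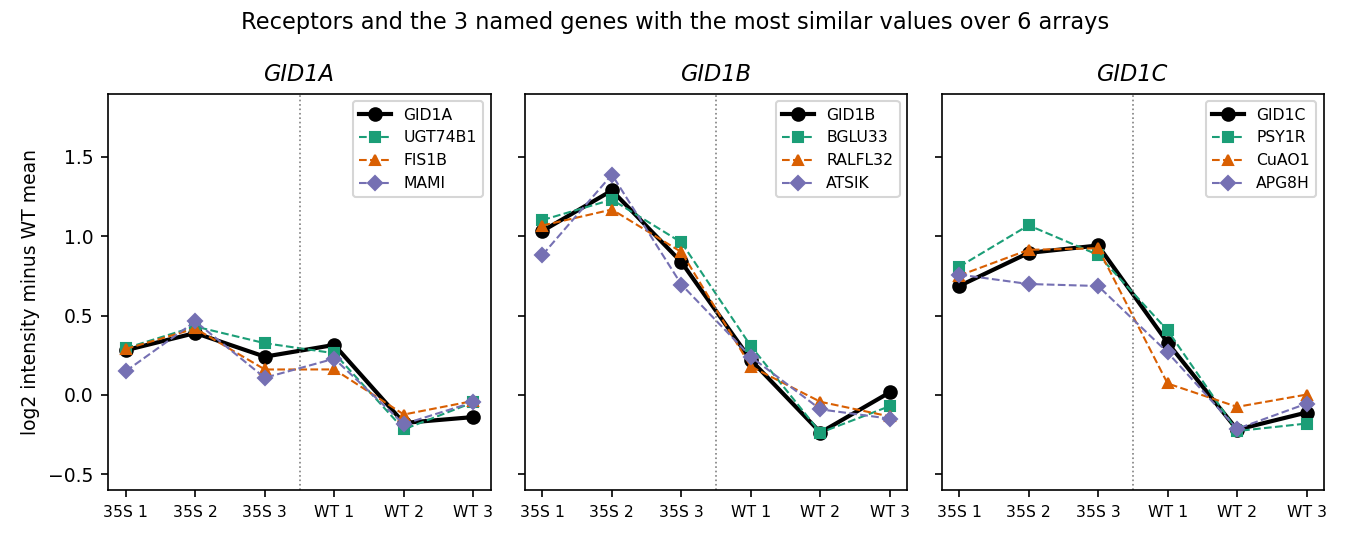
Log2 intensity relative to the WT mean in the 6 arrays, 35S::CLE41 left of WT, for each receptor (black) and the 3 genes with the smallest root mean square difference from it; lines join the values of 1 gene as a guide. WT replicate 1 lies above the WT mean for all 3 receptors. The genes drawn with them share this because they were picked for likeness over these same 6 arrays.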

How the data were processed

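Total RNA was labelled with biotin and hybridised to 1 array per sample, per the labels' protocols. The authors deposited 1 normalized intensity value per probe set and array on a linear scale; RMA and limma are named in the submitters' processing notes, with no version. The genome build was not given in the sources used here. No detection call was used.

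Log2 was taken. Probe sets were named through a platform table and a RefSeq gene table (TAIR10.1): 13513 of 22746 had 1 gene (13436 found in RefSeq), 503 several and 8730 were not listed. Genotype was tested with limma 3.58.1 in R 4.3.3 (lmFit, eBayes, two-sided, Benjamini-Hochberg over all 22746) and checked on simulated data. Shares and ratios used exact permutation tests over arrays. From each tissue list the markers named were those called, or the 2 with the smallest p where none was. Where a gene had several probe sets, likeness used the brightest by mean. The receptors and lists were chosen with earlier results of these data known. Alternatives were the replicate block, scaling, dim probe sets, eBayes settings, array weights, thresholds, background subtraction and single arrays left out. Figures used matplotlib 3.10.9.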

Additional observations from a re-analysis of the deposited data

How the results depend on the processing

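With 3 arrays per genotype and no measured background, small differences of dim genes could be missed and their sizes are uncertain. *GID1B* could not be fitted with the dimmest 40% left out, as it is among them. Without single arrays *GID1A* ran from 0.22 to 0.46, *GID1B* from 0.93 to 1.16 and *GID1C* from 0.73 to 1.01 (log2). With arrays shifted to 1 median they were 0.23, 0.97 and 0.76 in the same order. With array weights they were 0.17, 0.92 and 0.67. In both settings *GID1B* and *GID1C* were called and *GID1A* was not. At a threshold of 0.01 *GID1C* (0.84) was not called. Same-numbered samples deviated from their group means with correlations of -0.01, 0.08 and -0.09. These values gave no sign of pairing, but they cannot show that the samples were not handled in pairs. With the replicate block *GID1B* (1.05, adjusted p = 0.0183) and *GID1C* (0.84, adjusted p = 0.0331) stayed called, *GID1A* (0.30) did not, and the ratio differences were 0.75, 0.54 and 0.21. Of all probe sets 3364 were called (1803 higher, 1561 lower), 3367 with arrays shifted to 1 median (1392 higher, 1975 lower), 1607 when those of 1 gene were fitted alone, 1125 at a threshold of 0.01, 1834 after the background subtraction and 1699 to 2872 without single arrays. That subtraction gave -9.67 points for the *GID1A* share, 1.20 for the *GID1B* to *GID1A* ratio and 0.54 for *GID1B* to *GID1C*. Without single arrays the shares ran from -8.68 to -7.54, 2.78 to 3.82 and 3.72 to 5.51 points for *GID1A*, *GID1B* and *GID1C*, and the ratios from 0.67 to 0.83, 0.45 to 0.60 and 0.12 to 0.37. Gibberellin genes called were 2 to 4 and carboxylesterases 1 to 3, and 1 carboxylesterase at a threshold of 0.01. AT1G47480 (-0.015 to 0.24 without single arrays) reversed without 35S::CLE41 replicate 2, and AT1G68570 (-0.0095 to 0.22) without WT replicate 2. The causes were not tested.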
